A study of Mus musculus with 7 samples.

Results

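Complex I (NADH:ubiquinone oxidoreductase) is the largest enzyme of the mitochondrial respiratory chain. Its peripheral arm takes electrons from NADH and passes them to ubiquinone, and its membrane arm pumps protons with the energy released. The core subunits carry out this catalysis. Accessory subunits surround and stabilise the core, and assembly factors help to build the enzyme without staying in it. Proximal tubule cells of the kidney cortex reabsorb solutes with ATP made largely by this chain. HIF1A, a transcription factor of the low-oxygen response, is known for shifting cells from respiration towards glycolysis.

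The transcripts described here are those of the nuclear genes for complex I subunits. Members were taken by symbol from the deposited values per kidney, as Ndufa, Ndufb, Ndufc, Ndufs or Ndufv followed by a number, together with Ndufab1, and Ndufa4 was left out because its product belongs to complex IV. The rule found 36 of the 21970 protein-coding genes kept, of which 7 encode core and 29 accessory subunits. By arm, 16 are peripheral, 19 are in the membrane arm, and Ndufab1 is in both. Ndufb1 and the 7 mitochondrially encoded ND subunits were not analysed here.

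BPS-TA mice carried 3 transgenes that the label lists as GGT-TTA, GGT-HIF1A_M3 and BPS-TRE-CAS9n, and they were set against C57BL/6 mice labelled wild type (WT). The first encodes the tetracycline transactivator tTA and the second (TRACK) a stabilised mutant HIF1A, each under a truncated γ-glutamyltransferase promoter of the proximal tubule. The third, BPS, holds paired guide RNAs to Bap1, Pbrm1 and Setd2 and a Cas9 nickase that tTA switches on, and it descends from a single founder. Both groups ate regular chow and were killed at an age the labels give as 10 in an unclear unit, and the phenotypic work of the study used males. The HIF1A mutant and the edits come together in every BPS-TA kidney, so their parts cannot be told apart here. Cortex values were deposited for 4 BPS-TA kidneys, TC-7 and TC-8 together with TC-11 and TC-12, and 3 WT kidneys, WT-5 to WT-7, and values below follow this order.

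Levels are FPKM, fragments per kilobase of transcript scaled to sequencing depth, a unit inferred from the values. They totalled 1473813 to 1657734 in BPS-TA kidneys, against 1771791 to 1808843 in WT kidneys, and Gpx3 made up 55.5% to 58.2% of the total in BPS-TA and 60.2% to 61.7% in WT kidneys. Sequencing depth in reads was not given. Groups were compared with limma on log2(FPKM + 1) over 12036 genes, and "rose" and "fell" are used below for an adjusted p under 0.05 (Benjamini-Hochberg). The median log2 fold change of all these genes was 0.12. Which mouse each kidney came from is not stated, so the p-values treat the kidneys as independent.

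On the deposited scale, transcript levels of the complex I subunits differed little between BPS-TA and WT kidneys. Ndufa3 fell and Ndufb8 rose, and the other 34 of the 36 did not pass the test. Among all genes tested, 35% passed, 28.5% being higher and 6.56% lower in BPS-TA kidneys. Among the 3654 genes whose WT levels lay within those of the members, 31.7% passed, and 14.3% were lower with a call. At an unadjusted p under 0.05 there were 6 lower and 2 higher members, against 9.25% and 36.9% of all genes. Without TC-8, 3 members fell and 1 rose, and without TC-7, 1 fell and 2 rose. When TC-11, TC-12, WT-5, WT-6 or WT-7 was left out, 0 fell and 0 rose. Shares of all genes are not given for these fits. All 36 members passed the filter on low values, which asked for 1 FPKM or more in at least 3 kidneys. A member without a call cannot be read as unchanged. In simulated data only 200 of 12036 genes were changed. There the test called 3% of genes changed by 0.2 in log2 units and 86.6% of those changed by 0.5. With so few changed genes the adjustment of p is stricter than in the real data. These shares therefore do not give the chance of a call for the members. With each kidney centred on the median of all tested genes, 28 members fell, as described below.

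Small shifts to the negative side on the deposited scale were shared by most members. The log2 fold change was negative for 28 members and positive for 8, with a median of -0.055 and an interquartile range of 0.077. The same range was 0.336 over all genes tested and 0.273 over the 3654 genes whose WT levels lay within those of the members, whose median was 0.012. Of the 36 members, 33 lay below the median of all genes, and 32 lay within 0.15 of 0 on the log2 scale. Added over the 36 members, the FPKM came to 8459 ± 195 (SD, n = 4) in BPS-TA and 8671 ± 197 (SD, n = 3) in WT kidneys, a change of -2.4%. The 95% confidence intervals of the fold changes on this scale lay between -25.8% and +33.7%. Each interval covers its own member, and together they set no joint limit. With centring on all genes, Ndufa3 stood at -0.42 in log2 units.

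**Figure D1:**
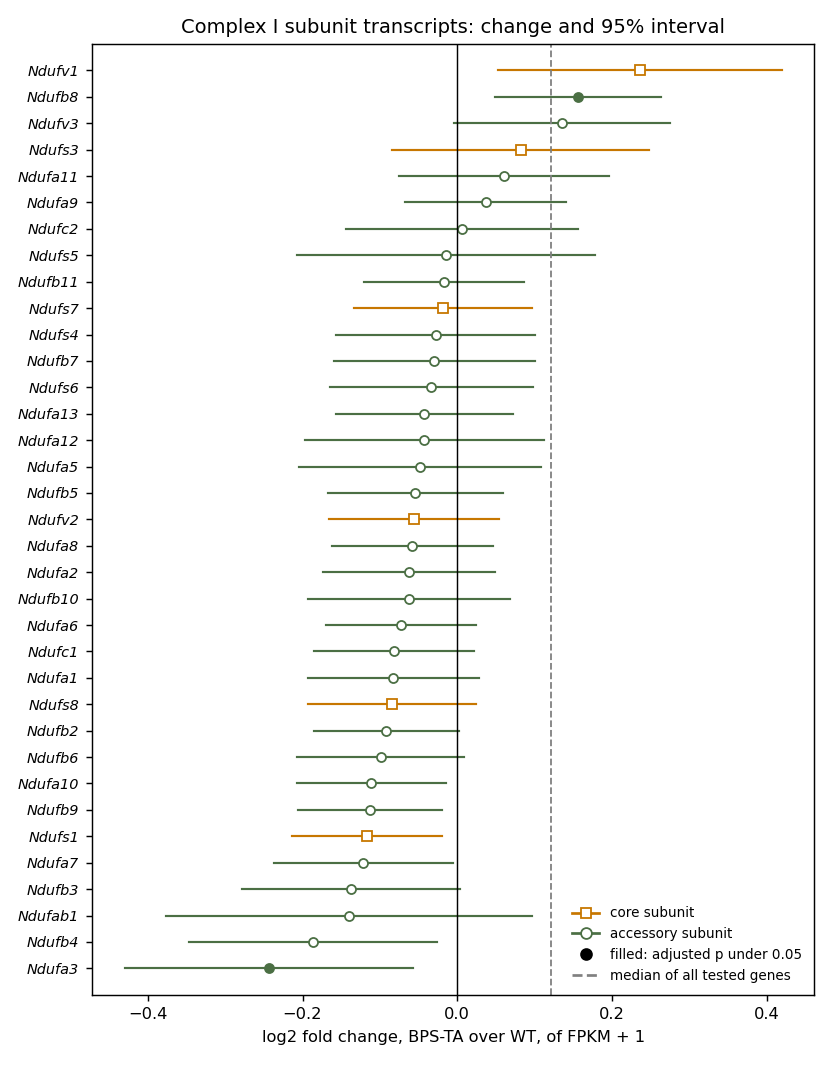
Log2 fold change, BPS-TA over WT, of log2(FPKM + 1) for 35 of the 36 complex I subunit genes (points) with the 95% confidence interval from limma (lines); squares are core and circles accessory subunits, filled points passed the test, and the dashed line is the median of all tested genes. Only Ndufb8 and Ndufa3 are filled, and 32 of the 35 points lie left of the dashed line at 0.12.

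Among the subunits that take electrons from NADH, Ndufv1 had the largest positive value. Its product binds FMN and NADH. Ndufv1 stood at 299, 372, 318 and 326 FPKM in BPS-TA kidneys, against 273, 264 and 298 FPKM in WT kidneys. The lowest BPS-TA kidney, TC-7, lay barely above the highest WT kidney, WT-7, and the others were further apart. The log2 fold change was 0.24 (standard error 0.080), which just missed the threshold (limma, adjusted p = 0.0503).

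Ndufv2 encodes the neighbouring iron-sulphur subunit. Its level was 221, 226, 215 and 222 FPKM in BPS-TA kidneys, against 241, 231 and 218 FPKM in WT kidneys, with overlapping groups (log2 fold change -0.056, adjusted p = 0.394). Ndufv3, an accessory subunit bound to these, measured 293, 326, 294 and 275 FPKM in BPS-TA kidneys, against 269, 276 and 265 FPKM in WT kidneys. Here TC-12 lay just under WT-6 and the other BPS-TA kidneys lay above all WT kidneys (log2 fold change 0.14, adjusted p = 0.117). Ndufs1 encodes the largest core subunit, which carries iron-sulphur clusters. It stood at 170.1, 161, 163 and 166 FPKM in BPS-TA kidneys, against 182, 176 and 179 FPKM in WT kidneys, so that every BPS-TA kidney was lower, but its log2 fold change of -0.12 did not pass the test (adjusted p = 0.0621).

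Among the core subunits near the ubiquinone site, those named here showed no common direction. Ndufs7, whose product helps to form this site, had 170.3, 184, 181 and 188 FPKM in BPS-TA kidneys, against 189, 183 and 177 FPKM in WT kidneys (log2 fold change -0.018, adjusted p = 0.800). The kidneys of the groups were intermixed.

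Ndufs8 carries iron-sulphur clusters that pass electrons on to this site. Its transcript measured 115, 123.1, 118 and 123.2 FPKM in BPS-TA kidneys, against 130.2, 123.7 and 127 FPKM in WT kidneys. TC-12 and WT-6 nearly touched, without overlap (log2 fold change -0.084, adjusted p = 0.195). Ndufs3, a structural core subunit, stood at 121, 148, 129 and 135 FPKM in BPS-TA kidneys, against 129, 128 and 119 FPKM in WT kidneys (log2 fold change 0.082, adjusted p = 0.408). TC-8 stood apart at the top. Over 84.1% of its transcript Ndufs3 shares near-identical or overlapping sequence with Gm12251 and Kbtbd4, so reads could have been split between these genes.

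Core and accessory subunits were then set against each other. None of the 7 core genes passed the test, 3 being positive and 4 negative with a median of -0.018. The sign of this median turned to 0.010 without TC-7 and 0.0041 without WT-5. Of the 29 accessory genes 1 fell, 1 rose and 24 were negative, with a median of -0.058. The core median exceeded the accessory one by 0.040. Taken kidney by kidney against the WT mean, this difference was 0.053, 0.0022, 0.055 and 0.079 in BPS-TA kidneys, against 0.0079, 0.014 and -0.024 in WT kidneys (0.047 ± 0.032, SD, n = 4, and -0.00068 ± 0.021, SD, n = 3). The WT values are centred by construction, because their own mean is the reference, whereas the BPS-TA values are not. TC-8 lay among the WT kidneys. The median was -0.038 in the peripheral and -0.063 in the membrane arm. All 7 core genes belong to the peripheral arm, so class and arm are partly mixed. The 9 accessory genes of that arm had a median of -0.043.

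Ndufa3 and Ndufb8 are both accessory subunits of the membrane arm. Ndufa3 had the largest negative log2 fold change. It stood at 492, 506, 422 and 428 FPKM in BPS-TA kidneys, against 578, 552 and 508 FPKM in WT kidneys. TC-8 and WT-7 differed little, whereas TC-11 and TC-12 were clearly lower. The log2 fold change of -0.24 (standard error 0.081) passed the test (adjusted p = 0.0479), but not without TC-11, TC-12, WT-5, WT-6 or WT-7 (adjusted p 0.0551 to 0.144 in these fits), and neither without the filter on low values (0.120) nor without the variance trend (0.0628). On the opposite strand Ndufa3 overlaps Tfpt, and whether reads were counted by strand is not stated.

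Ndufb8 had 617, 632, 663 and 657 FPKM in BPS-TA kidneys, against 592, 578 and 558 FPKM in WT kidneys. All BPS-TA kidneys exceeded all WT kidneys, and the log2 fold change was 0.16 (standard error 0.047, adjusted p = 0.0334). Without TC-11, TC-12, WT-5, WT-6 or WT-7 it was no longer past the threshold (adjusted p 0.0526 to 0.122), nor was it without the variance trend (0.0596) or after quantile normalization (0.105). When each kidney was centred on the median of all tested genes, its sign turned to -0.019. Ndufb8 overlaps Gm20538 on the same strand.

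Ndufb9 and Ndufb4, also of the membrane arm, were lower in every BPS-TA kidney without passing the test. Ndufb9 is a small accessory subunit to which an acyl carrier protein binds. Its level was 483, 495, 481 and 492 FPKM in BPS-TA kidneys, against 534.1, 533.7 and 514 FPKM in WT kidneys, without overlap (log2 fold change -0.11, adjusted p = 0.0618). Ndufb4 measured 23.3, 20.97, 23.9 and 22.6 FPKM in BPS-TA kidneys, against 24.9, 28.3 and 24.7 FPKM in WT kidneys. Here TC-11 and WT-7 were close (log2 fold change -0.19, adjusted p = 0.0700). Near-identical sequence in Ndufb4c covers 40.2% of the Ndufb4 transcript.

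Ndufab1 encodes the mitochondrial acyl carrier protein, which also serves in fatty acid synthesis in mitochondria. It stood at 30.0, 40.4, 37.5 and 36.5 FPKM in BPS-TA kidneys, against 43.2, 36.4 and 39.7 FPKM in WT kidneys. Its groups overlapped, with TC-7 the lowest (log2 fold change -0.14, adjusted p = 0.318). Ndufa11, a membrane arm subunit, had 20.8, 23.5, 21.2 and 22.9 FPKM in BPS-TA kidneys, against 21.2, 20.6 and 21.6 FPKM in WT kidneys (log2 fold change 0.060, adjusted p = 0.456), and its sign turned to -0.11 with centring on all genes and to -0.053 with quantile normalization.

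**Figure D2:**
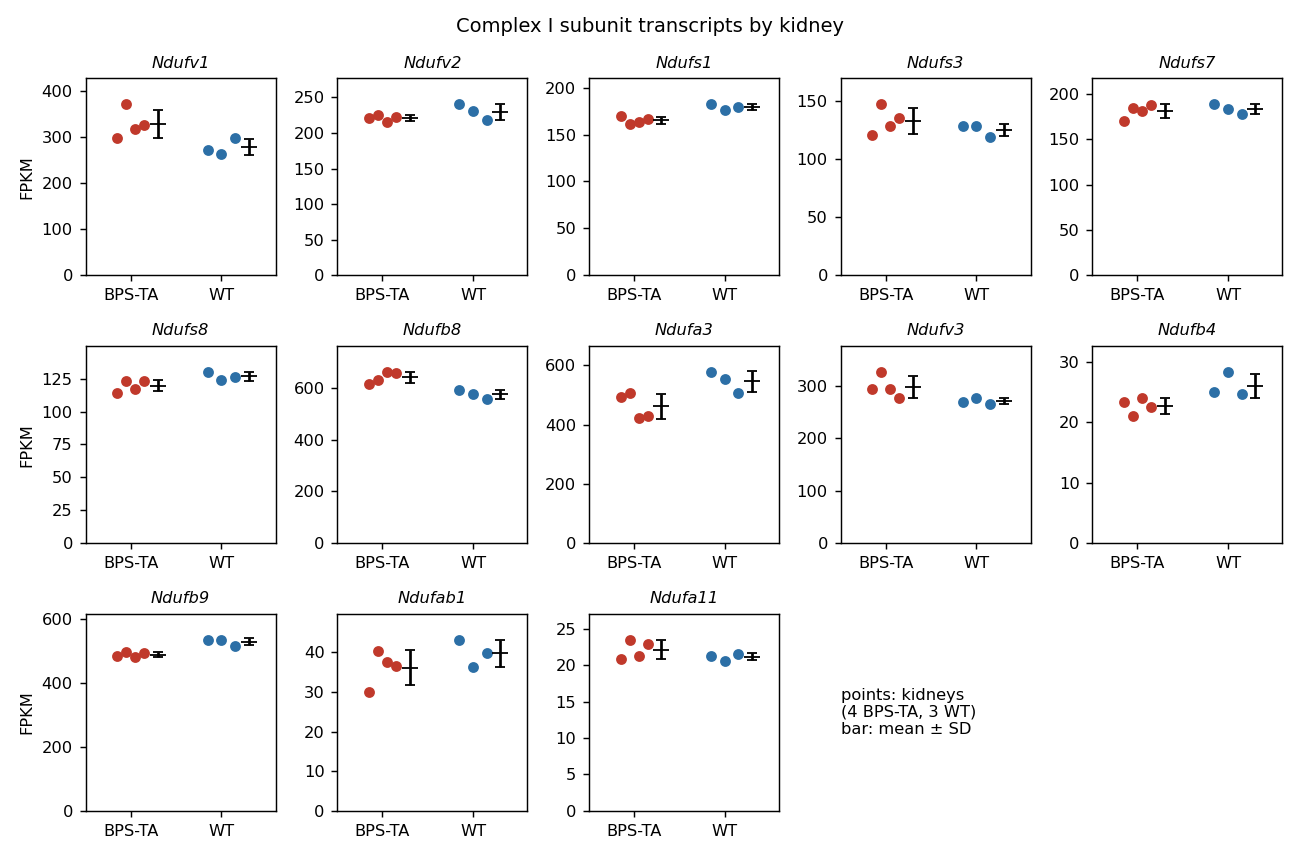
FPKM in each kidney (points; 4 BPS-TA in red, 3 WT in blue) with mean and SD (bars) for 6 core and 7 accessory subunits, those named in the text. The groups stay apart for Ndufv1, Ndufs1, Ndufs8, Ndufb8, Ndufa3, Ndufb4 and Ndufb9, and overlap for the other 6 genes.

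Seen over all 36 members, the groups did not overlap in 12. The 10 that were lower in every BPS-TA kidney were Ndufa1, Ndufa3, Ndufa10, Ndufb2, Ndufb3, Ndufb4, Ndufb9, Ndufc1, Ndufs1 and Ndufs8, and the 2 that were higher were Ndufb8 and Ndufv1. Of all genes tested, 8.87% were lower and 35% higher without overlap. Ndufa10, related to nucleoside kinases, averaged 449 ± 11.8 (SD, n = 4) FPKM in BPS-TA and 484 ± 6.33 (SD, n = 3) FPKM in WT kidneys, with an adjusted p of 0.073 from limma. The other accessory members, not given above with values, lay between -0.14 and 0.037 on the log2 scale, from Ndufb3 at the low end to Ndufa9, a subunit of the dehydrogenase and reductase family, at the high end.

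The members also differed together from kidney to kidney. The median difference of the 36 members from the WT mean was -0.10 in TC-7, -0.026 in TC-8, -0.071 in TC-11 and -0.041 for TC-12, and it was 0.035 in WT-5, -0.013 in WT-6 and -0.020 in WT-7. TC-8 thus lay close to WT-6 and WT-7, though the WT kidneys are centred by construction here too. TC-7 was the lowest of all kidneys for 17 members, and WT-5 the highest for 18. All tested genes together had medians of 0.104 to 0.146 in the BPS-TA kidneys, so that the complex I genes lay 0.17 to 0.22 below them there. The 3654 genes at the WT levels of the members, with a median log2 fold change of 0.012, are not given kidney by kidney.

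**Figure D3:**
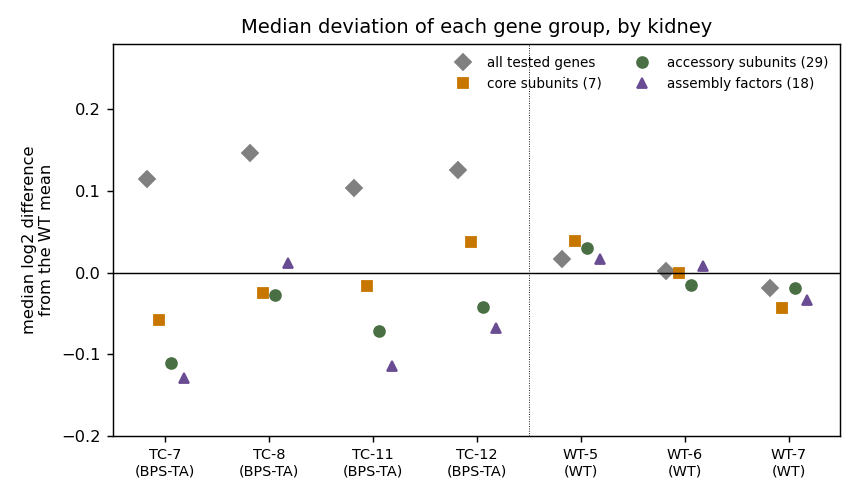
Median log2 difference from the WT mean in each kidney, on log2(FPKM + 1), of all 12036 tested genes, the 7 core and 29 accessory subunits, and 18 assembly factors. In BPS-TA kidneys the median of all genes is 0.104 to 0.146, while the accessory subunits lie below 0 in every one.

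Which members passed the test depended on how the kidneys were scaled. With each kidney centred on the median of the tested genes, 28 members fell and 0 rose, against 20.6% and 12.6% of all genes. The shares among genes at the WT levels of the members are not given for this scaling. The 28 comprised 4 of 7 core and 24 of 29 accessory genes, and the median of the members was -0.23. Only Ndufv1 stayed positive there, at 0.061 (adjusted p = 0.592). Quantile normalization gave 2 that fell (Ndufa3 and Ndufb4) and 2 that rose (Ndufv1 and Ndufv3), against 14.3% and 11.8% of all genes. The median of the members stayed negative under these scalings and with an equal total without selenoprotein genes, at -0.23, -0.049 and -0.042 in that order. These scalings differ in what is held equal between kidneys, and the files do not show which is right.

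Centring each kidney on the median of the 36 members compared the subunits with each other, a step added after the values were seen. By construction the members then lay around 0. Ndufv1 (0.30, adjusted p = 0.0158), Ndufb8 (0.22, adjusted p = 0.00776) and Ndufv3 (0.20, adjusted p = 0.0184) rose relative to the other subunits and none fell, while 39.6% of all genes were higher and 4.69% lower on this scale. Ndufv1 and Ndufv3 belong to the flavoprotein fragment of the peripheral arm. Its other subunit, Ndufv2, stood at 0.0060 on this scale (adjusted p = 0.914).

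The order of the levels was nearly the same in both groups. Mean FPKM ran from 614 for Ndufb8, 505 for Ndufb9 and 498 for Ndufa3 down to 37.7 for Ndufab1, 24.1 for Ndufb4 and 21.7 for Ndufa11, a 28.3-fold span. Of 35 neighbouring pairs in this order, 29 overlapped over the 7 kidneys. The 6 steps without overlap lay between Ndufb8 and Ndufb9, Ndufa5 and Ndufa6, Ndufa2 and Ndufb10, Ndufa7 and Ndufs7, Ndufs4 and Ndufab1, and Ndufab1 and Ndufb4. Spearman's rho between the mean levels in BPS-TA and WT kidneys was 0.994 over the 36 genes, a description only, since all share the same libraries. Pearson's r between the log2 WT mean and the log2 fold change was 0.074. The WT values enter both quantities, so this too is a description only.

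FPKM depends on the transcript length assumed, which is not stated here, so levels of different genes are compared with uncertainty. The authors' mean counts, scaled to library size, were lowest for Ndufb4, at 285, and exceeded 1000 for 32 members. Ndufa11 had a mean count of 2423 at 21.7 FPKM, whereas Ndufb2 had 569.6 at 207 FPKM. The median coding transcript in the annotation is 545 bases long for Ndufa11 and 4371 for Ndufb2. Spearman's rho between level and mean count was 0.52 over the members. The cause of this mismatch was not tested. A length held the same in all kidneys would largely cancel in the fold change of a gene, but how the values were computed is not stated. In the GRCm38 annotation, 14 members share a stretch of at least 51 bases, the read length, at 98% identity or more with another gene, among them Ndufs5 with BC002163 over 53.3% of its transcript and Ndufab1 with its copies over 33.3%, and 16 members had neither such a stretch nor an overlapping gene.

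**Figure D4:**
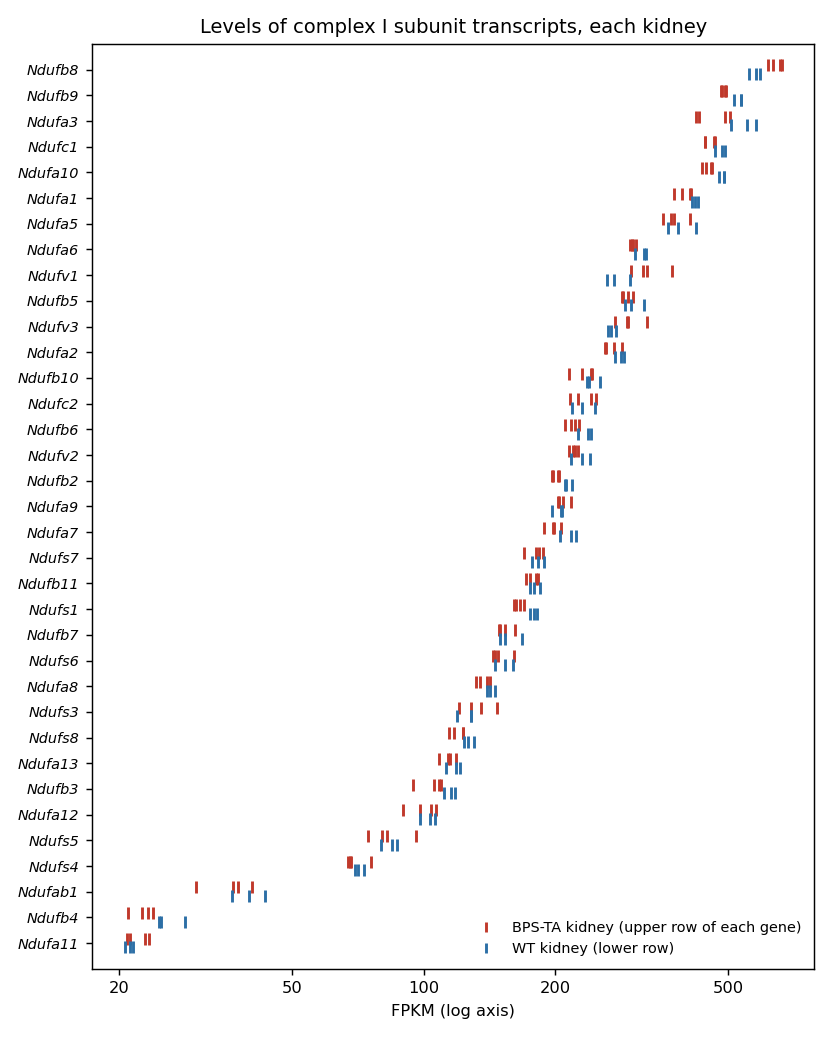
FPKM (log axis) of 35 of the 36 complex I subunit genes in each kidney, ordered by mean level, with BPS-TA kidneys as the upper and WT kidneys as the lower row of ticks. Levels run from a mean of 614 FPKM for Ndufb8 to 21.7 FPKM for Ndufa11, and most neighbours overlap.

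Several transcripts of complex I assembly factors were lower in BPS-TA kidneys. Of 19 listed, 18 had values, of which 5 fell and 0 rose, 13 not passing the test (median -0.087), beside 6.56% lower and 28.5% higher among all genes. With centring on all genes 12 fell, where 20.6% of all genes did, and with quantile normalization 8, where 14.3% did. At an unadjusted p under 0.05 the counts were also 5 and 0, against 9.25% and 36.9% of all genes. Ndufaf4, which helps to build the part of the peripheral arm near ubiquinone, stood at 38.3, 36.1, 35.96 and 36.3 FPKM in BPS-TA kidneys, against 45.5, 45.7 and 44.6 FPKM in WT kidneys. Its groups were well apart (log2 fold change -0.30, standard error 0.046, adjusted p = 0.00242), and it passed the test with any 1 kidney left out. Whether assembly factors and subunits differ was not tested.

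The other 4 assembly factors that fell did so by less, and the count of 5 became 2 without TC-7, WT-5 or WT-7 and 1 without TC-11, TC-12 or WT-6. Shares of all genes are not given for the fits with a kidney left out. Ndufaf6, of the early peripheral arm, fell by 0.21 in log2 units (adjusted p = 0.0274). Tmem126b and Tmem70, which act in building the membrane arm, fell by 0.21 (adjusted p = 0.0316) and 0.18 (adjusted p = 0.0427). 1810043H04Rik, an older symbol of Ndufaf8, fell by 0.20 (adjusted p = 0.0339). The low kidney differed between genes, being TC-7 for Ndufaf6, TC-12 for Tmem126b and 1810043H04Rik, and TC-11 for Tmem70.

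Markers of several cell types of the cortex changed in the same kidneys, where 28.5% of all genes were higher and 6.56% lower. The proximal tubule was represented by 10 genes, of which 7 fell and 1 rose, with a summed level of 2910 to 3779 FPKM in BPS-TA and 4898 to 5199 FPKM in WT kidneys. Both markers of the thick ascending limb, another segment rich in mitochondria, rose, with sums of 2660 to 3170 FPKM in BPS-TA and 1488 to 1722 FPKM in WT kidneys. All 6 macrophage markers rose (83.9 to 133 FPKM in BPS-TA and 43.8 to 49.4 FPKM in WT kidneys), and so did all 3 of endothelium. Fewer rose in other types, with 2 of 4 for collecting duct, 1 of 3 for podocytes and 1 of 2 for fibroblasts. Of the 2 markers of the distal convoluted tubule, 0 passed, with sums of 265 to 319 FPKM in BPS-TA and 245 to 335 FPKM in WT kidneys. Of the B cell markers, Cd79a rose, with sums over both markers of 1.40 to 2.54 FPKM in BPS-TA and 0.204 to 0.298 FPKM in WT kidneys. The other, Ms4a1, and Cd3e of T cells stayed under 1 FPKM in every kidney. In bulk cortex, fewer cells of a type and less RNA per cell cannot be told apart, and the part of these shifts in the complex I values was not tested.

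Promoter sequences are shown for the members with a call and for Ndufv1, which had the largest positive fold change. They come from RefSeq (GRCm38.p6), from 250 bases before to 50 after the start of the gene, 5′ to 3′ on the strand of the gene, and a window was found for 32 of the 36 members. Capitals mark matches to AAGATGG (YY1) or ACGTG (HIF), read on either strand. Ndufb8 lies at chr19:44555393-44555692 on the minus strand, Ndufv1 at chr19:4012706-4013005 on the minus strand and Ndufa3 at chr7:3617123-3617422 on the plus strand.
Ndufb8: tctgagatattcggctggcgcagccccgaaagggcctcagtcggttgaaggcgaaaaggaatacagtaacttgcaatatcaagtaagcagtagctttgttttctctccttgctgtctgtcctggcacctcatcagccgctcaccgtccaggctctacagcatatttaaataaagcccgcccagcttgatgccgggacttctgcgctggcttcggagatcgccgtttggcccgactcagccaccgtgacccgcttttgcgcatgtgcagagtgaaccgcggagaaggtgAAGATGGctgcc
Ndufv1: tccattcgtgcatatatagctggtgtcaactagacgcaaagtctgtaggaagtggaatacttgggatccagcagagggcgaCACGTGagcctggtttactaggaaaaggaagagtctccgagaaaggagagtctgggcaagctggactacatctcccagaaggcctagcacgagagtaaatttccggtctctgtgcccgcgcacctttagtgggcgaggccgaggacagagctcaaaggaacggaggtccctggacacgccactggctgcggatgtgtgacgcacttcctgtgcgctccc
Ndufa3: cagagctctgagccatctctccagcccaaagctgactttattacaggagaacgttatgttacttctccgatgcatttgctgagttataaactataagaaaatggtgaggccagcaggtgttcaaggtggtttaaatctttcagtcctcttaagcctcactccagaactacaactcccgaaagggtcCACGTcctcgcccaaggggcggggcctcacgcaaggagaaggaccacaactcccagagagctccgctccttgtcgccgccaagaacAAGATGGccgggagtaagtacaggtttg

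Ndufb8, which rose, and Ndufa3, which fell, both carry AAGATGG just after the start, whereas Ndufv1 does not. In Ndufv1, ACGTG is read on both strands of a single CACGTG. Over all windows, AAGATGG was found in 7 of 32 members (21.9%) and in 6.48% of 27025 promoters, and ACGTG in 6 members (18.8%) and 19.7% of promoters. GCATGCGC (NRF1) was in 3 members (9.38%) and 2.81% of promoters, CCGGAAG (ETS) in 4 (12.5%) and 9.12%, and AAGGTCA (ERR) in 3 (9.38%) and 4.66%. Among the members with ACGTG, Ndufv1 and Ndufv3 had positive and Ndufa1, Ndufa3, Ndufa7 and Ndufb10 negative log2 fold changes. A match to these letters describes the sequence and does not show that a factor binds there.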

How the data were processed

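Total RNA of kidney cortex was sequenced with single reads of 51 bases on a HiSeq2000. The submitters' notes name mm9 and DESeq 1.32. For aligner, counting program and annotation, nothing is stated in the sources used here. In the deposited table with 1 value per gene and kidney no unit is named. FPKM was inferred, since totals differ between kidneys, and how the authors computed it is not stated. From the authors' comparison only the mean signal per gene, counts scaled to library size and averaged over all samples, was used as the authors' mean. Its fold changes, standard errors, statistics and p-values were not used. The paper counts 7 WT kidneys and the table holds 3. Labels speak of 4 mice in each cohort.

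Columns named TC were taken as BPS-TA and those named WT as WT. Their numbers match no replicate number in the labels. Of 22053 rows, 83 entries of 37 repeated identifiers were left out, none of them a member. limma 3.58.1 (R 4.3.3) was fitted with a mean-variance trend to log2(FPKM + 1) of the 12036 genes that reached 1 FPKM in 3 or more kidneys, with Benjamini-Hochberg adjustment over all of them, and was tested on simulated data. A fold change on this scale is lowered by the pseudocount for genes near an FPKM of 1. Alternatives were centring on the median of the tested genes, quantile normalization, an equal total without 22 selenoprotein genes, a pseudocount of 0.1, no filter, 1 FPKM or more in every kidney, limma without trend and leaving out each kidney. Sequence sharing between genes was found with blastn 2.17.0 on the GENCODE annotation of GRCm38. The rest was done in Python 3.11.15 (pandas 2.3.3, numpy 2.4.6, matplotlib 3.10.9, scipy 1.17.1).

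Members and lists were chosen with earlier results of these data known. Values in every kidney are given for the core subunits (1 is not reported here by name, though it enters every count), members past the threshold, and the 3 members with the highest level, lowest level, largest positive and largest negative fold change. Of the other lists, genes past the threshold are named, up to 6 a list, with Ndufa4 and Ndufa4l2.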

Additional observations from a re-analysis of the deposited data

Results flagged for a closer look

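In the 4 BPS-TA kidneys, 3 of 50 genes checked had a kidney far from the others, the share of the range taken by its gap to the nearest being above Dixon's 95% critical value. Chance alone marks about 5% of such groups. Ndufs4, an accessory subunit of the peripheral arm, stood at 75.8 FPKM in TC-8 and at 67.1 to 68.3 FPKM in the other BPS-TA kidneys. Ndufaf4 stood at 38.3 FPKM in TC-7 and at 35.96 to 36.3 FPKM in the others, all of them below the WT kidneys. 1810043H04Rik stood at 54.7 FPKM in TC-12 and at 57.7 to 58.0 FPKM in the others.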

How the results depend on the processing

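Of all genes tested, 20.6% fell and 12.6% rose with centring on all genes. With quantile normalization 14.3% fell and 11.8% rose, and with centring on complex I 4.69% fell and 39.6% rose. Shares of all genes are not given for the other settings below. Of the complex I members, the number that fell was 28 with centring on all genes, 2 with quantile normalization, 4 without the filter (Ndufa3 not among them), 0 without the trend, 0 with centring on complex I and 0 to 3 when 1 kidney was left out. The number that rose was 0 with centring on all genes, 2 with quantile normalization, 3 with an equal total without selenoprotein genes, 0 without the trend, 3 with centring on complex I and 0 to 2 with 1 kidney left out. Assembly factors that fell numbered 12 with centring on all genes, 8 with quantile normalization, 3 without the filter, 1 with centring on complex I and 1 to 5 with 1 kidney left out. Subunits of complexes II to V that fell numbered 26 with centring on all genes, 2 with centring on complex I and 2 to 7 with 1 kidney left out, and those that rose 0 with centring on all genes, 5 with quantile normalization, 2 with an equal total, 0 without the filter, 5 with centring on complex I and 0 to 1 with 1 kidney left out. With centring on all genes the median was -0.23 for all members, -0.19 for core and -0.23 for accessory subunits, Ndufs3 turned to -0.093, Ndufb8 to -0.019, Ndufa11 to -0.11 (-0.053 with quantile normalization) and Ndufv3 to -0.040, where the median of all tested genes was -0.054. With centring on complex I, Ndufs7 turned to 0.043 and Ndufv2 to 0.0060. Ndufs7 also turned to 0.010 without TC-7 and 0.0041 without WT-5. The cause of these changes was not tested. Left-out kidneys moved the median of the members between -0.070 and -0.031. Depth is unknown, and only 4 members had an authors' mean count below 1000. No paired analysis was possible because the columns carry no replicate number of the labels, so the replicate block was not run.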

Other observations

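On the deposited scale, the subunit genes of complexes II to V that passed the test all belonged to complex IV (cytochrome c oxidase). Of 39 tested, 4 fell and 1 rose, against 6.56% and 28.5% of all genes. This restriction depended on the scaling. With centring on all genes, 3 of 4 subunits of complex II, 7 of 9 of complex III and 9 of 15 of complex V fell, where 20.6% of all genes did, and with quantile normalization Atp5b (adjusted p = 0.00322), Atp5a1 (0.0156) and Sdha (0.0428) rose and Atp5g2 (0.0221) fell. Atp5g2 averaged only 1.42 FPKM in BPS-TA and 1.46 FPKM in WT kidneys, near the limit of the filter. On the deposited scale its log2 fold change was -0.026 (limma, adjusted p = 0.820). Ndufa4, named for complex I but a subunit of complex IV, stood at 838, 844, 931 and 982 FPKM in BPS-TA kidneys, against 1121, 1098 and 1086 FPKM in WT kidneys (log2 fold change -0.30, adjusted p = 0.0102 from limma). Its HIF1-responsive paralogue Ndufa4l2 stood at 114, 136, 94.9 and 98.04 FPKM in BPS-TA kidneys, against 3.87, 3.13 and 2.85 FPKM in WT kidneys (log2 fold change 4.70, adjusted p = 3.45e-07 from limma). In BPS-TA kidneys its FPKM exceeded that of several members, among them Ndufs4, Ndufab1, Ndufb4 and Ndufa11. Such a comparison between genes carries the uncertainty of levels given above. Cox6c, Cox5a and Cox7a2 fell by 0.25, 0.18 and 0.13 in log2 units (adjusted p = 0.00674, 0.0252 and 0.0483), and Cox7a1, the form typical of muscle, rose by 0.37 (adjusted p = 0.0142). After quantile normalization the calls of Ndufa4 (adjusted p = 0.0691) and Cox7a2 (0.193) did not hold. The number that fell was 7 without TC-8 and 2 without TC-11, TC-12, WT-5 or WT-6, and Cox7a1 did not pass without WT-6 or WT-7. For these fits, too, shares of all genes are not given.

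Among 14 regulators of mitochondrial biogenesis, 3 rose and 0 fell on the deposited scale, a share below the 28.5% of all genes that were higher, so the count says nothing particular about this list. Ppargc1a, a coactivator of mitochondrial genes, stood at 16.5 to 17.9 FPKM in BPS-TA and 13.1 to 14.97 FPKM in WT kidneys (log2 fold change 0.26, adjusted p = 0.0142), with 0.087 (adjusted p = 0.386) after centring on all genes. Esrrb, an estrogen-related receptor, averaged 11.2 ± 0.857 (SD, n = 4) FPKM in BPS-TA and 7.46 ± 0.635 (SD, n = 3) FPKM in WT kidneys (0.53, adjusted p = 0.00214). Tfb1m, a methyltransferase of mitochondrial ribosomal RNA, rose by 0.42 (adjusted p = 0.00457). Esrrb and Tfb1m also passed the test after centring (adjusted p = 0.00862 and 0.0465), and after quantile normalization Esrrb passed (0.0144) while Tfb1m (0.0762) and Ppargc1a (0.194) did not.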
